A study of Mus musculus with 9 samples.

Results

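Of 20258 named mouse genes on the array, 8 were examined: 5 G protein-coupled receptors (Ptgir, Vipr1, Gpr18, Adgrg5 and Gpr183) and 3 regulators of G protein signalling (Rgs1, Rgs2 and Rgs10). They were chosen by their values on these same arrays, for large rises from double-positive (DP) to single-positive (SP) thymocytes. The DP to SP differences are therefore given as a description, with no test. The choice used neither the genotype differences nor the array of TCRβ-negative cells. The genotype differences are still taken between the DP and SP arrays that it used. The lineage contrast shares its SP arrays with the choice, so it is not fully independent of it.

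RNA came from thymocytes of C57BL/6 mice, sorted by CD4, CD8 and TCRβ, with 1 array per group and 9 arrays in all. Control mice were Brd1+/+ with Tie2-Cre, and the conditional knockout (CKO) mice were Brd1flox/flox with Tie2-Cre, so every group carried the Cre transgene. Brd1 is a bromodomain protein and part of complexes that acetylate histones, and Tie2-Cre recombines in endothelial and blood-forming cells rather than in T cells alone. DP, CD4SP and CD8SP cells of both genotypes, and CKO CD4SP cells lacking surface TCRβ, were from mice aged 8 weeks. CD8SP cells of both genotypes that also carried OT-I, a T cell receptor transgene selected on MHC class I, were from mice aged 14 weeks. The 4 pairs of CKO and control arrays (DP, CD4SP, CD8SP, OT-I) give the genotype comparison; the TCRβ-negative array has no control. The labels do not say how many mice stand behind an array. In sorted bulk RNA, fewer cells of a type and less RNA per cell cannot be told apart.

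G protein-coupled receptors pass a signal from an extracellular ligand to heterotrimeric G proteins inside the cell. Receptors that couple to Gs raise cyclic AMP, which in T cells dampens antigen receptor signalling, while receptors that couple to Gi lower it and often guide migration. RGS proteins speed up GTP hydrolysis by the Gα subunit and so shorten the signal; in lymphocytes they limit responses to chemokines. During positive selection, DP thymocytes that receive a signal through the T cell receptor become CD4SP or CD8SP cells, change their set of migration receptors and prepare to leave the thymus.

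Levels are log2 signals relative to the 75th percentile of the array, and differences are differences of such levels. The share of probes well above background was 39.02% to 45.9% per array, no spot was saturated, and the 75th percentile lay between 87.4 and 140 intensity units. Brd1 was not lower on the CKO arrays, and was the higher there in each pair. Control levels were -0.79 (DP), -1.09 (CD4SP), -1.37 (CD8SP) and -1.34 (OT-I). The CKO levels of Brd1 in the same populations were -0.33, -0.98, -0.73 and -0.73. Its probe therefore does not check the genotype labels, and CKO below means the arrays labelled so. The summed linear level of 7 DP markers was 1710 and 1850 in the DP arrays and 1790 in TCRβ-negative cells, against 66.7 and 118 in CD4SP cells (control first). In CD8SP cells this sum was 875 in the control and 492 in the CKO, and in OT-I cells 567 and 109. The sum of 6 mature SP markers was 48.7 and 74.8 in DP cells, 548 and 525 in CD4SP cells, 274 and 698 in CD8SP cells and 251 and 660 in OT-I cells. By these sums the control CD8SP and OT-I arrays carried more DP transcripts and fewer mature transcripts than their CKO counterparts. The DP markers include Cd8b1, which also marks the CD8 lineage, so their sum is not specific to DP cells on these arrays. The median level of the DP markers had the same order, at 3.95 against 2.17 in CD8SP cells and 2.99 against -1.20 in OT-I cells (control first).

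Promoters of 7 members were matched in RefSeq (GRCm38.p6, 250 bases before to 50 after the start site), and 4 are shown because their genes differ most in pattern or lie side by side. Ptgir was the member with the largest excess in CD4SP cells and Adgrg5 the one with an excess in CD8SP cells, while Gpr18 and Gpr183 are immediate neighbours. Ptgir lies at chr7:16906240-16906539 on the plus strand, Adgrg5 at chr8:94923444-94923743 on the plus strand, Gpr18 at chr14:121915839-121916138 on the minus strand and Gpr183 at chr14:121965144-121965443 on the minus strand. Capitals mark matches to the motifs named after the sequences, on either strand.
Ptgir: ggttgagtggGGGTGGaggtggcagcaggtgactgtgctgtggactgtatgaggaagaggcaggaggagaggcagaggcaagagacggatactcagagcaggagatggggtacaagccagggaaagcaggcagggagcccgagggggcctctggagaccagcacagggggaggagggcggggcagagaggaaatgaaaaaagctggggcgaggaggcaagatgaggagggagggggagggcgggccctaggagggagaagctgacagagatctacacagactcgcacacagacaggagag
Adgrg5: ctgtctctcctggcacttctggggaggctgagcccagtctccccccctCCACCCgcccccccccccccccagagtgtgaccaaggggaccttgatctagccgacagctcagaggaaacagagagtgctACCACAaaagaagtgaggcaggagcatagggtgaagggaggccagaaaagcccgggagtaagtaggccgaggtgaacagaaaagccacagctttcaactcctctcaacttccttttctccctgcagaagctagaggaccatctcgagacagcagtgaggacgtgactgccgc
Gpr18: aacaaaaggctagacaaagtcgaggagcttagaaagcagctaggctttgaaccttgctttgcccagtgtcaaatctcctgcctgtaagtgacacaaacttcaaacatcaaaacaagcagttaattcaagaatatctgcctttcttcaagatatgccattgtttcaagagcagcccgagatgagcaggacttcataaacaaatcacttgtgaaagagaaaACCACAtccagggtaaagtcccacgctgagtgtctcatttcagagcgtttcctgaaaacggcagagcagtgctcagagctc
Gpr183: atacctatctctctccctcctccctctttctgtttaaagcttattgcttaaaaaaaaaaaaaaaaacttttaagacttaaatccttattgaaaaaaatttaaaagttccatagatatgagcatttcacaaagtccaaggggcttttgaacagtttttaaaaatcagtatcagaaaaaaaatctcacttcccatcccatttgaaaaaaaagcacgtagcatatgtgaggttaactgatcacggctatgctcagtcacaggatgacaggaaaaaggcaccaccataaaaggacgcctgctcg
The motif CCACCC of KLF and Sp factors was found in the promoters of Ptgir, Adgrg5, Rgs2 and Rgs10, and in 31.5% of all 32851 promoters of this length. The core TGTGGT of RUNX factors was found in those of Gpr18 and Adgrg5, and in 16.8% of all promoters. The half-site TGACG of the cAMP response element was found in Vipr1 and Rgs2 and in 20.8% of all promoters. The full element TGACGTCA, which contains the half-site, was found in no member and in 1.79% of all promoters. Neither TGTTTAC (FOXO, 3.65% of all promoters) nor CCGGAAG (ETS, 8.86%) occurred in a member's window. A match is a run of letters and not a measured site, and these arrays do not measure binding. The shown promoters differed in composition, with a GC content of 62% in Ptgir, 59% in Adgrg5, 44% in Gpr18 and 35.3% in Gpr183, against a median of 52.7% over all promoters.

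In CD4SP cells, all 8 members lay more than 2-fold above DP cells in the control arrays (background 12.1% of transcripts compared, named or not, as in all background shares below) and 7 of 8 in the CKO arrays (background 9.04%), Rgs2 being the exception. In CD8SP cells, 5 of 8 did so in the controls (background 18.2%) and 5 of 8 in the CKO (background 9.31%). Since the members were picked for this contrast, nothing is read from these counts. The description as maturation-induced held for Vipr1, Gpr18, Adgrg5, Gpr183, Rgs1 and Rgs10 in both lineages by the sign of the difference. In CD8SP cells Rgs2 went against it in both genotypes. Ptgir was not well above background in CD8SP cells of either genotype, so it had no measured rise there.

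Ptgir, the receptor for prostacyclin, which couples to Gs, had levels of 3.18 in control and 2.33 in CKO CD4SP cells and of -2.99 in control DP cells. It was not well above background in CKO DP cells (-3.88), in control and CKO CD8SP cells (-3.55 and -3.35) or in TCRβ-negative cells (-5.81). In the OT-I arrays its level was 0.11 in the control and 0.44 in the CKO. The CD4SP arrays thus stood highest, the OT-I arrays between, and the polyclonal CD8SP arrays with the DP arrays at the bottom, with no overlap between these steps. CD4SP exceeded DP cells 72.1-fold in the control and at least 48.5-fold in the CKO.

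Vipr1, a Gs-coupled receptor for vasoactive intestinal peptide and PACAP, was well above background on all 9 arrays. Its levels were -2.22 and -1.25 in DP cells (control first), 4.03 and 4.33 in CD4SP cells, 1.46 and 2.33 in CD8SP cells, 0.48 and 3.86 in OT-I cells and -2.79 in TCRβ-negative cells. The 3 arrays of DP and TCRβ-negative cells lay below all 6 SP arrays, and within the OT-I pair the control was far lower than the CKO. A second, dimmer probe of Vipr1 was also highest in CD4SP cells (-0.27 and -0.28) and lowest in control DP cells (-3.06), and was not well above background in control OT-I cells.

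Gpr18, a lymphocyte receptor whose ligand is debated, was not well above background in control DP (-3.81) and TCRβ-negative cells (-4.57), and its level in CKO DP cells was -2.05. Levels were 1.88 and 2.37 in CD4SP cells, 0.73 and 1.83 in CD8SP cells and -0.27 and 2.37 in OT-I cells. The CKO array was the higher one in each of these pairs, and the CD4SP and CD8SP arrays were separated by less than the OT-I pair alone. The difference from DP cells in the controls was at least 41.4-fold in CD4SP cells and at least 18.7-fold in CD8SP cells.

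Adgrg5, an adhesion receptor that couples to Gs, had the opposite lineage order. It was not well above background in control DP (-5.39) and TCRβ-negative cells (-5.38), and stood at -2.77 in CKO DP cells. Its levels of 0.15 and 0.55 in CD4SP cells lay below those of 3.59 and 3.67 in CD8SP cells and 2.92 and 4.62 in OT-I cells. All 4 CD8-lineage arrays were thus above both CD4SP arrays. In the controls, CD8SP cells exceeded DP cells at least 136-fold.

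Gpr183 (EBI2), a receptor for oxysterols that guides B cells, dendritic cells and helper T cells within lymphoid organs, had levels of -2.41 and -2.18 in DP cells and of 2.08 and 2.32 in CD4SP cells. In CD8SP cells it stood at -1.37 in the control and 0.57 in the CKO, and in OT-I cells at -2.26 and 0.62. It was not well above background in TCRβ-negative cells (-3.46). Both CD4SP arrays were the highest, both CKO CD8-lineage arrays intermediate, and the control OT-I array lay between the DP arrays.

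Rgs1, which limits Gi-dependent responses to chemokines in lymphocytes, had levels of -2.84 and -2.66 in DP cells, 2.13 and 1.12 in CD4SP cells, 0.89 and 2.06 in CD8SP cells and -0.75 and -0.32 in OT-I cells. It was not well above background in TCRβ-negative cells (-3.47). CD4SP and CD8SP cells overlapped, and both OT-I arrays lay below all 4 polyclonal SP arrays.

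Rgs2, an inhibitor of Gq signalling that is induced early by many stimuli, ranged only from 4.99 in control OT-I cells to 7.00 in control CD4SP cells. Its other levels were 5.63 and 6.17 in DP cells, 6.50 in CKO CD4SP cells, 5.31 and 5.47 in CD8SP cells, 5.83 in CKO OT-I cells and 5.37 in TCRβ-negative cells. Both CD4SP arrays lay above the other 7, while CD8SP cells lay below DP cells of the same genotype. Rgs2 exceeded DP cells 2.59-fold in control CD4SP cells and 1.26-fold in CKO CD4SP cells. A second Rgs2 probe was well above background on 3 arrays only, and its levels are given only beside the TCRβ-negative values.

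Rgs10, a small member of the family that acts on Gi-class subunits, had levels of 6.58 and 6.98 in DP cells, 8.32 and 8.25 in CD4SP cells, 7.13 and 7.69 in CD8SP cells and 7.85 and 8.49 in OT-I cells. TCRβ-negative cells had the lowest level, 6.45. All 6 SP arrays were above the 3 others, although control CD8SP cells lay close to CKO DP cells.

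**Figure D1:**
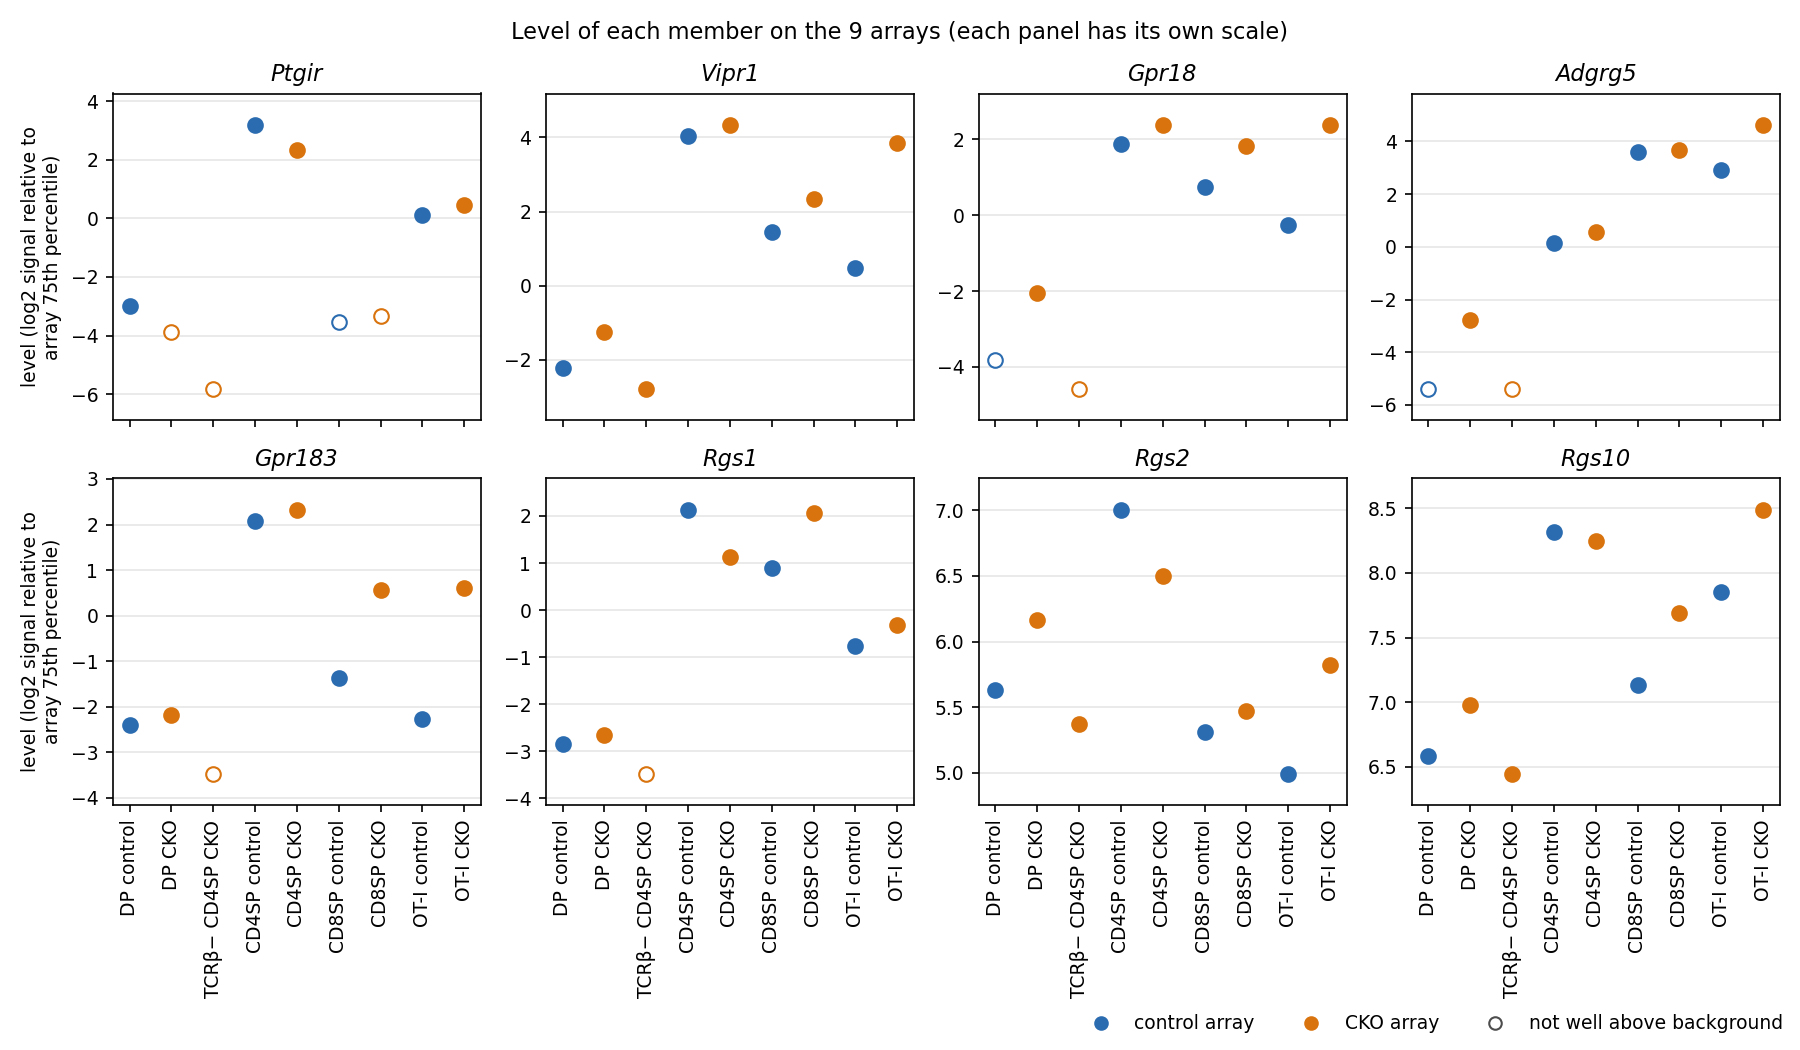
Level of each of the 8 genes (log2 signal relative to the array's 75th percentile) on each of the 9 arrays, with 1 point per array, controls in blue and CKO in orange; open points were not well above background. Ptgir is high in CD4SP cells (3.18 and 2.33), Adgrg5 in CD8SP and OT-I cells, and in TCRβ-negative cells only Vipr1, Rgs2 and Rgs10 are well above background.

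B and myeloid cells also express Rgs1, Rgs2 and Gpr183, so their markers were read on each array. Among 7 B cell markers, Pax5 was not well above background on any array, and the summed level was highest in control DP cells (15.7) and lowest in CKO CD4SP cells (3.91). Among 11 myeloid and dendritic markers on the array, Cd14 was not well above background on any array, and Lyz2 was so on 3 arrays, CKO DP and both CD4SP. The summed myeloid level was 67.8 and 51.9 in DP cells, 105 and 76.7 in CD4SP cells, 94.9 and 152 in CD8SP cells, 67.6 and 92.1 in OT-I cells and 45.1 in TCRβ-negative cells. In CD8SP cells the 11 markers did not move together. In CKO CD8SP cells, where the sum was highest, 6 of 11 were well above background, and C1qa, C1qb and C1qc were not. From DP to CD8SP cells Itgax and Mpeg1 rose while C1qa and C1qc fell (adjusted p below 0.05 in limma). From DP to CD4SP cells all 10 markers tested had a positive difference (median 1.73), though none was called. C1qa, C1qc and Lyz2 were higher in CD4SP than in CD8SP cells (adjusted p below 0.05 in limma). In the CD4SP pair the myeloid sum and Rgs1 were both lower in the CKO array, and in the CD8SP and OT-I pairs both were higher there. In the DP pair the myeloid sum was lower and Rgs1 slightly higher (0.18) in the CKO. The summed level of 6 NK and NKT markers differed within the CD4SP pair, being 8.17 in the control and 0.411 in the CKO, and was 5.42 and 5.12 in the CD8SP pair. The part of myeloid, B and NK cells in the Rgs1, Rgs2 and Gpr183 values was not tested.

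Ptgir separated the lineages by the widest margin of the 8 members. In the limma fit of population and genotype over the 9 arrays, Ptgir was higher in CD4SP than in CD8SP cells by 6.20 ± 0.41 (log2, SE; adjusted p = 0.0197, Benjamini-Hochberg over 20284 transcripts, 12287 of them named genes), and in both genotypes. As neither CD8SP array was well above background, this is a difference of at least 53.3-fold, with the CKO CD8SP signal kept as measured. It was the only 1 of 8 members called at an adjusted p below 0.05, against a background of 0.389% of transcripts. The choice of members used the same SP arrays, so this p-value is not independent of the choice. The call was lost when the slide was added as a block (6.54, adjusted p = 0.166) and without the DP pair (adjusted p = 0.0796). Over 9 alternatives the adjusted p of Ptgir ranged from 0.00257 to 0.166 and its difference from 3.61 to 6.54.

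The other members did not pass. Adgrg5 was lower in CD4SP cells by 3.28 ± 0.64 (adjusted p = 0.16 in limma), by 10.9-fold in the controls and 8.68-fold in the CKO. It passed under the normexp background correction alone (-2.72, adjusted p = 0.0421), and over 9 alternatives its adjusted p ranged from 0.0421 to 0.291. Gpr183 was higher in CD4SP cells by 2.60 ± 0.70 (adjusted p = 0.289), Vipr1 by 2.29 ± 0.73 (adjusted p = 0.326) and Rgs2 by 1.36 ± 0.38 (adjusted p = 0.297). Rgs10 differed by 0.87 ± 0.29 (adjusted p = 0.335) and Gpr18 by 0.85 ± 0.52 (adjusted p = 0.482). For Rgs1 the fitted difference was 0.15 ± 0.52 (adjusted p = 0.901), made of 1.24 in the controls and -0.94 in the CKO. Unadjusted p-values were below 0.05 for 6 of 8 members, against 13.3% of all transcripts tested. The members' median difference was 1.12, against -0.04 over all transcripts. The choice of members used the same SP arrays, so nothing is read from this count or median.

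**Figure D2:**
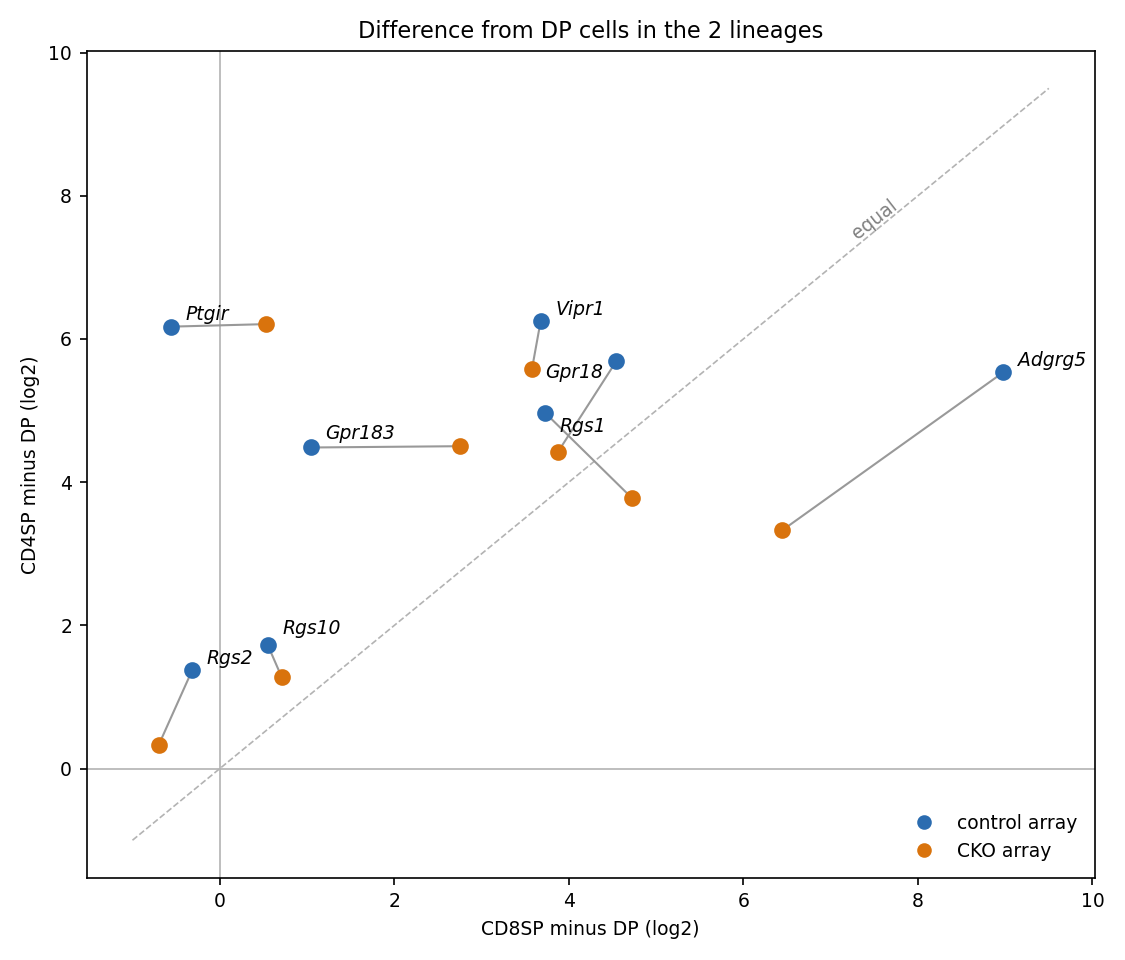
Difference of CD4SP from DP cells (vertical, log2) against that of CD8SP from DP cells (horizontal, log2) for each gene, with control arrays in blue, CKO arrays in orange and a line joining the genotypes; the dashed line marks equal differences. Ptgir sits high at the left (6.17 and 6.21 against -0.56 and 0.53, with CD8SP cells not well above background), Adgrg5 far to the right, and Rgs1 crosses the line of equality between genotypes.

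OT-I cells were set beside polyclonal CD8SP cells of the same genotype as values only, since the groups also differ in age and, in the controls, in slide. Ptgir was higher in OT-I cells, at least 6.63-fold in the controls and 13.8-fold in the CKO. The polyclonal arrays were not well above background, and the CKO signal was kept as measured. Rgs1 was lower in OT-I cells, 3.12-fold in the controls and 5.21-fold in the CKO. These 2 genes kept their direction in both genotypes with differences above 2-fold. Vipr1, in contrast, was 1.97-fold lower in OT-I cells in the controls and 2.9-fold higher in the CKO.

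CKO CD4SP cells without surface TCRβ lacked the high levels of ordinary CD4SP cells. All 8 members were more than 2-fold lower in TCRβ-negative than in TCRβ-bearing CD4SP cells of the CKO (background 9.4% of transcripts). The differences ranged from 2.18-fold for Rgs2 and 3.49-fold for Rgs10 to 139-fold for Vipr1, and reached at least 60.1-fold for Ptgir and at least 61.9-fold for Gpr18. The size depended on the probe. The dimmer Vipr1 probe stood at -2.77 in TCRβ-negative and -0.28 in CKO CD4SP cells, a much smaller difference. With the mean of all probes of a gene, 7 of 8 members were more than 2-fold lower, Rgs2 being the exception. The second Rgs2 probe stood at -2.90 in TCRβ-negative and -2.38 in CKO CD4SP cells. This comparison shares the CKO CD4SP array with the choice of members, which fixed that array as high.

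Against CKO DP cells, all 8 members were lower in the TCRβ-negative array by sign (background 52.3%), although for Ptgir neither array was well above background. With signals not well above background raised to their array's lowest signal that was, where they lay below it, 3 of 8 were more than 2-fold lower (background 2.02%). These were Vipr1 (2.9-fold), Gpr18 (at least 2.89-fold) and Gpr183 (2.43-fold, from a TCRβ-negative signal not well above background and kept as measured). With the mean of all probes of a gene, 2 of 8 were. The dimmer Vipr1 probe stood at -2.77 in TCRβ-negative cells, against -2.33 in CKO DP and -3.06 in control DP cells. Adgrg5 was lower at least 1.75-fold, and Rgs1 1.76-fold from a TCRβ-negative signal likewise kept as measured. Rgs2 and Rgs10 were 1.74-fold and 1.44-fold lower. Against the control DP array, only Gpr183 was more than 2-fold lower (2.08-fold), and under normexp no member passed 2-fold against CKO DP cells. The mature SP marker sum was 62.1 in TCRβ-negative cells, between the 48.7 and 74.8 of the DP arrays. The median level of these markers was 1.35, below the 2.29 (control) and 2.55 (CKO) of the DP arrays. A lower level than in DP cells was thus not particular to the members. The DP marker sum was 1790, between the 1710 and 1850 of the DP arrays. With 1 TCRβ-negative array there is no replicate error for these differences.

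**Figure D3:**
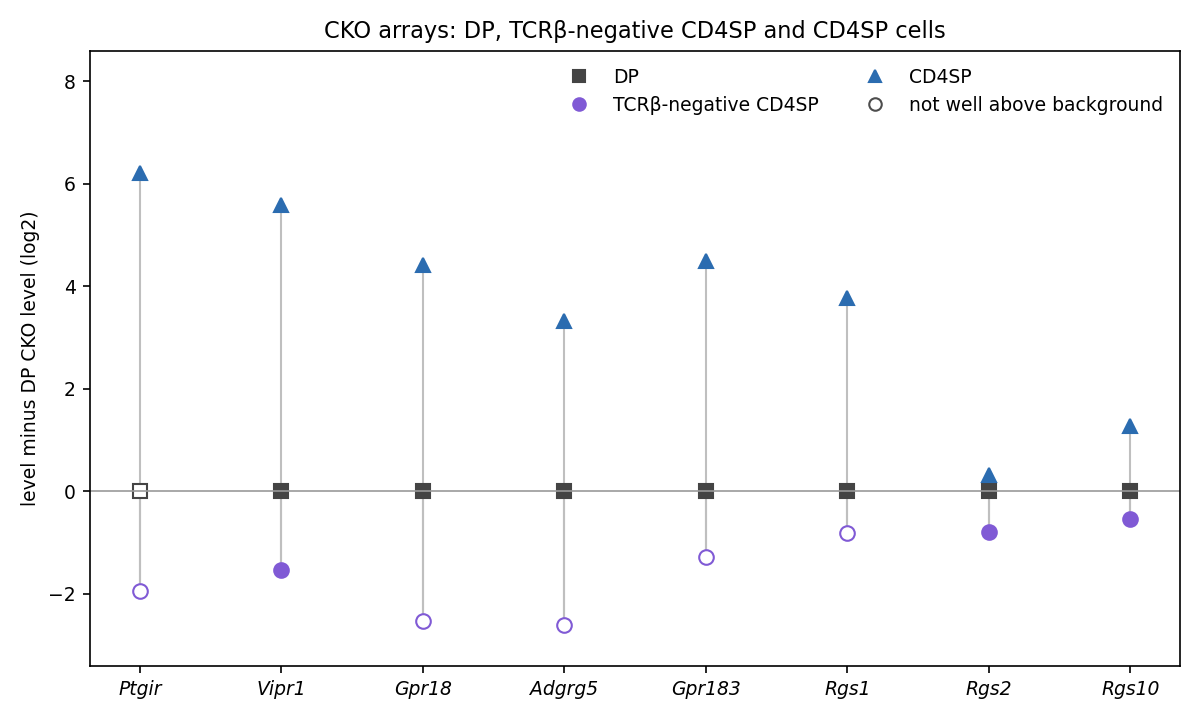
Level of each gene on 3 CKO arrays, as the difference (log2) from its level in CKO DP cells: DP (squares, 0 by construction), TCRβ-negative CD4SP (circles) and CD4SP (triangles), with open symbols not well above background. The filled circles lie below the squares, at -0.53 (Rgs10), -0.80 (Rgs2) and -1.54 (Vipr1), open circles mark no measured level, and every triangle lies above the squares.

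The genotype comparison set arrays labelled CKO against control arrays of the same population. No member passed in the fit over 4 pairs (0 of 8 at an adjusted p below 0.05 in limma, background 0.281%), and adjusted p-values ran from 0.267 to 0.842. At an unadjusted p below 0.05 there were 4 of 8, against 10.9% of all transcripts tested, and these were 4 of the 5 receptors. Gpr18 was higher in the CKO by 1.50 ± 0.37 (log2, SE; adjusted p = 0.267), Vipr1 by 1.38 ± 0.52 (adjusted p = 0.425), Gpr183 by 1.32 ± 0.50 (adjusted p = 0.427) and Adgrg5 by 1.20 ± 0.45 (adjusted p = 0.427). The CKO array was the higher one in 4 of 4 pairs for each of these 4 genes, against 10.6% of all transcripts tested. The members were chosen for rises from DP to SP cells on these arrays. In the CD8SP and OT-I pairs the control had more DP and fewer mature transcripts by marker sums. All transcripts are thus no like background for the members' genotype counts, here and by population. Nothing is read from those counts. Over 11 alternatives the difference of Gpr18 ranged from 0.94 to 1.83 and its adjusted p from 0.177 to 0.596.

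The remaining members moved less. Ptgir differed by -0.30 ± 0.29 (adjusted p = 0.697 in limma), with the CKO higher in 2 of 4 pairs. The difference was 0.38 ± 0.21 for Rgs10 (adjusted p = 0.541), 0.25 ± 0.27 for Rgs2 (adjusted p = 0.717) and 0.19 ± 0.37 for Rgs1 (adjusted p = 0.842), each with the CKO higher in 3 of 4 pairs. In all 3 RGS genes the CD4SP pair was the one in which the CKO was lower. The median difference of the 8 members was 0.79, against -0.04 over all transcripts tested. The limit given for the counts holds for this median too. All 6 mature SP markers had a positive genotype difference, with a median of 1.03.

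By population, Vipr1, Gpr18 and Gpr183 differed most in the OT-I pair. In the OT-I pair 4 of 8 members were more than 2-fold higher in the CKO (background 8.45%): Vipr1 (10.4-fold), Gpr183 (7.33-fold), Gpr18 (6.23-fold) and Adgrg5 (3.25-fold). In the CD8SP pair 3 of 8 were (background 6.7%): Gpr183 (3.84-fold), Rgs1 (2.25-fold) and Gpr18 (2.13-fold). In the DP pair 1 of 8 was (background 3.87%), Gpr18 at least 2.72-fold; Adgrg5 was higher at least 1.65-fold there. In the CD4SP pair 0 of 8 were (background 3.82%), and Rgs1 was 2.01-fold lower in the CKO. Without the OT-I pair the fitted difference fell to 0.71 for Vipr1, 0.80 for Gpr183, 1.12 for Gpr18 and 1.03 for Adgrg5, none of them called. Without the DP pair, in which the control array was not well above background, Adgrg5 differed by 0.73, and under normexp by 0.60.

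Marker sums also differed within the pairs. In the CD8SP and OT-I pairs the control array had more of the 7 DP markers (875 against 492, and 567 against 109) and less of the 6 mature SP markers (274 against 698, and 251 against 660). In the CD4SP pair, where no receptor differed by 2-fold, the DP sums were 66.7 in the control and 118 in the CKO and the mature SP sums 548 and 525. In the DP pair the CKO array had more of both, with DP sums of 1710 and 1850 and mature SP sums of 48.7 and 74.8. The 4 receptors were higher in the CKO in all 4 pairs. The DP marker sum was lower in the CKO in the CD8SP and OT-I pairs and higher in the DP and CD4SP pairs. The mature SP sum was higher in the CKO in the DP, CD8SP and OT-I pairs and slightly lower in the CD4SP pair. The median level of these 6 markers was higher in the CKO in all 4 pairs. It was 2.29 and 2.55 in DP, 5.52 and 5.83 in CD4SP, 4.67 and 5.91 in CD8SP and 4.99 and 6.12 in OT-I cells (control first). The part of this difference in cell make-up in the genotype values was not tested. The arrays of the CD8SP pair lie on different slides, and in that pair the slide and the genotype cannot be told apart; the DP and CD4SP pairs lie within slide 1 and the OT-I pair within slide 2. Within those 3 pairs the differences (DP, CD4SP, OT-I) were 0.97, 0.30 and 3.38 for Vipr1 and 0.23, 0.24 and 2.87 for Gpr183. For Gpr18 they were 1.76, 0.49 and 2.64 and for Adgrg5 2.61, 0.40 and 1.70, the DP controls of these genes not being well above background. The dimmer Vipr1 probe gave 0.73, -0.01 and 2.01.

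**Figure D4:**
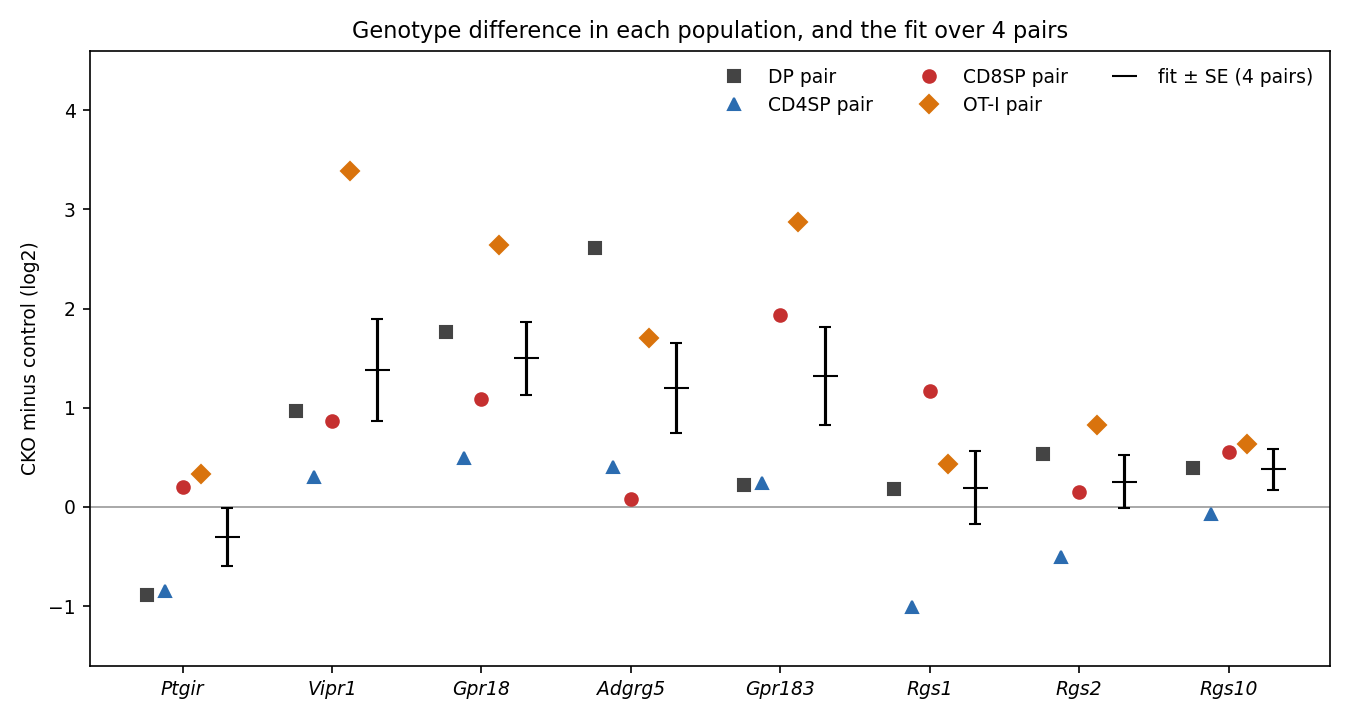
CKO minus control difference (log2) of each gene in the DP, CD4SP, CD8SP and OT-I pairs, 1 point per pair, with the fitted difference over the 4 pairs ± SE in black. Vipr1, Gpr18, Adgrg5 and Gpr183 lie above 0 in all 4 pairs, highest in OT-I cells except for Adgrg5, whose DP control array was not well above background; Ptgir and the RGS genes lie on both sides of 0.

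Other genes of the same pathways were taken from 9 lists of 206 genes without the members, of which 204 were on the array and 129 were tested. From DP to CD4SP cells 13 of 129 rose and 1 fell (10.1% and 0.775%, against 2.16% and 0.922% of all transcripts), and from DP to CD8SP cells 12 rose and 2 fell (9.3% and 1.55%, against 2.42% and 1.04%). These lists were drawn up with earlier results of these arrays known and are given as counts. With the slide as a block, 8 genes rose in CD4SP and 0 in CD8SP cells. Under quantile normalisation 7 rose in CD8SP cells, and 6 did with scaling to probes detected on all arrays.

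Most of the called genes were class A receptors of lymphocytes, with 7 of 39 tested rising in CD4SP and 8 of 39 in CD8SP cells. S1pr1, the receptor for sphingosine 1-phosphate that drives thymic exit, rose by 6.31 ± 0.49 in CD4SP and 5.97 ± 0.49 in CD8SP cells (adjusted p = 0.0125 and 0.0080 in limma). Ccr7, which draws maturing cells into the medulla, rose by 5.24 and 4.65 (adjusted p = 0.0128 and 0.0118). Both are also among the 6 mature SP markers. Cxcr3 rose in both lineages by 5.13 and 5.07 (adjusted p = 0.0225 and 0.0195). Ccr4 and Ccr9, both chemokine receptors, fell by 3.24 and 1.80 in CD8SP cells (adjusted p = 0.0496 and 0.0478), and Lpar4 fell by 2.51 in CD4SP cells (adjusted p = 0.0444).

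Lineage and genotype calls were few in these lists. Gpr83, known from regulatory T cells, was higher in CD4SP than in CD8SP cells by 2.95 (adjusted p = 0.0452 in limma), and was well above background on 2 arrays, both CD4SP. The adenosine receptor Adora3 was lower by 4.32 (adjusted p = 0.0453), and was well above background on the 4 CD8-lineage arrays only. The 1 genotype call was Gnb4, a Gβ subunit, which was lower in the CKO by 2.02 (adjusted p = 0.0424). Its levels were -0.81, -0.19, -0.42 and 0.32 in control DP, CD4SP, CD8SP and OT-I cells and -3.03, -2.39, -2.61 and -1.15 in the CKO. All 4 control arrays lay above all CKO arrays.

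Few relatives of the members passed the test. Of 10 other RGS and axin genes tested only Rgs3 passed, rising by 2.37 ± 0.31 in CD4SP and 1.81 ± 0.31 in CD8SP cells (adjusted p = 0.0232 and 0.0403 in limma). Rgs16 differed from DP cells by 2.73 and 2.41 (adjusted p = 0.287 and 0.296). Of 5 prostanoid genes tested only Ptger2, a Gs-coupled receptor for prostaglandin E, rose in CD4SP cells, by 3.14 (adjusted p = 0.0498), being well above background on 3 arrays. Ptger4 differed by 0.55 and -0.59 (adjusted p = 0.361 and 0.28), and the prostacyclin synthase Ptgis was not well above background on any array.

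The VIP and oxysterol systems had no called gene in CD4SP or CD8SP cells, among 5 and 3 genes tested. The peptide genes Vip and Adcyap1 were not well above background on any array, and Vipr2, the paralog of Vipr1, only on the CKO DP and CKO OT-I arrays (-1.58 and -1.09). Of the enzymes that make or degrade the Gpr183 ligand, Ch25h and Cyp7b1 were well above background on 1 array each, control DP and control CD8SP, and Hsd3b7 on all 9. None of 10 adhesion receptors tested passed. Adgrg3 differed from DP cells by 3.40 in CD4SP and 2.97 in CD8SP cells (adjusted p = 0.0583 and 0.0767), and Adgrg1 by -2.32 and -0.57 (adjusted p = 0.101 and 0.621).

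Downstream of the receptors, the Gγ subunit Gng2 rose by 3.29 and 3.10 (adjusted p = 0.0225 and 0.0214 in limma), alone among 19 G protein subunits tested. In the cAMP pathway 2 of 22 tested genes rose in CD4SP cells. The cAMP phosphodiesterase Pde4a rose in both lineages by 3.26 and 2.97 (adjusted p = 0.0289 and 0.0348), and the protein kinase A subunit Prkar1b in CD4SP cells by 2.22 (adjusted p = 0.0292). Pde4a was well above background on 4 arrays and Prkar1b on 2. Arrb2, an arrestin that uncouples and internalises receptors, rose by 1.88 and 1.83 (adjusted p = 0.0263 in both lineages), alone among 16 receptor kinases, arrestins and modulators tested.

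Several members lie beside each other in the RefSeq gene order. Gpr18 and Gpr183 follow each other on chromosome 14. Their CD4SP minus CD8SP differences in the controls were 1.15 and 3.44, and that difference between neighbours was not tested. Ubac2, listed next to Gpr18, differed from DP cells by 0.96 in CD4SP and 0.63 in CD8SP cells (adjusted p = 0.171 and 0.295 in limma). Rgs2, Rgs13, Rgs1, Rgs21 and Rgs18 follow each other on chromosome 1. Of the other three, Rgs13 was not well above background on any array, Rgs18 was so on 1 array, and Rgs21 had no probe among those kept. Adgrg5 lies between Ccdc102a and the adhesion receptors Adgrg1 and Adgrg3 on chromosome 8. Ccdc102a rose by 3.29 in CD4SP and 5.32 in CD8SP cells (adjusted p = 0.0208 and 0.00802 in limma), whereas Adgrg1 on the other side did not pass. Bag3, a co-chaperone gene listed after Tial1 beside Rgs10, differed between genotypes by -3.35 ± 0.29 (adjusted p = 0.0283), while Rgs10 itself was not called.

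The 9 arrays also give the genes whose levels followed each member most closely, among 11217 named genes well above background on at least 5 arrays. These correlations across groups are a description, since the groups share developmental stage and every gene that changes with it will correlate. Gpr18 was followed most closely by Gimap3 (Pearson r = 0.997), Ccnd2 and Cd53 (r = 0.993 each), and Vipr1 by Tesc, Rhof and Fam102a (0.991, 0.989 and 0.988). Adgrg5 was followed by its neighbour Ccdc102a (0.988), by Cst7, which encodes cystatin F (0.987), and by Ggt1 (0.984). The nearest to Gpr183 were Tnf (0.992), Izumo1r (0.988) and Orai1 (0.978).

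Ptgir was followed by Sh3bp2, Xylt2 and Cd5 (r = 0.972, 0.965 and 0.961). Rgs1 was followed by Ctss (0.993), which encodes cathepsin S, by Cxcr3 (0.991) and by Cish (0.985). For Rgs2 the nearest gene was Nr4a1 (0.977), a nuclear receptor induced by T cell receptor signals, followed by Dbp (0.963) and Bcl10 (0.956). Rgs10 was followed by Irf2bpl, Pglyrp2 and Mllt6 (0.989, 0.987 and 0.982). Between members, the 28 pairwise correlations over the 9 arrays ranged from -0.12 to 0.97 with a median of 0.75.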

How the data were processed

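Transcripts of sorted thymocytes were measured on 9 one-colour Agilent arrays, 1 per group. Per the file headers, Feature Extraction 10.7.1.1 made the deposited processed signal, an intensity after background subtraction and spatial detrending, with probe positions on mm9; the labels describe a protocol with biotinylated cRNA, whereas the headers give Cy3. The deposited series table holds the same intensity divided by each array's 75th percentile (r = 1.0 with the scanner values) and was used as a check.

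Replicate spots were averaged, and 144 of 55681 probes with outlier flags were dropped, and levels are log2 of the signal minus the array's 75th percentile. RefSeq accessions named 26715 probes, and the brightest of a gene's probes stood for it. A gene was tested if well above background on at least 2 arrays. limma 3.58.1 (R 4.3.3) fitted population and genotype as additive terms over the 9 arrays, with 3 residual and 2.91 prior degrees of freedom, two-sided, Benjamini-Hochberg over 20284 transcripts, of which 12287 were named genes and the others were probes without a symbol, kept apart by their identifier. The SE thus rests on how far the 4 pairs differ in their genotype difference. Pairs of arrays were compared by more than 2-fold differences, without p-values. A signal not well above background was raised to the array's lowest signal that was, if it lay below it, and was otherwise kept. Differences with a raised signal are given as "at least" values, and those with a kept signal as measured. The number of arrays limits the precision.

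The members and the gene lists were chosen with earlier results of these data known. Named were all members, list genes called for genotype or lineage, up to 3 with the largest called DP to SP difference per list, ligands, synthesising enzymes and paralogs, the 3 genes closest to each member and, chosen after their values were seen, called genes that fell and chromosomal neighbours; some items that this rule names are not reported here. Alternatives were other scalings, normexp (offset 50, on the median spot signal), no detection filter, the mean of probes, a slide block, a variance trend, and leaving out pairs. Other tools were Python 3.11.15, pandas 2.3.3, numpy 2.4.6 and matplotlib 3.10.9.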

Additional observations from a re-analysis of the deposited data

Results flagged for a closer look

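In Rgs1 the CKO array was higher in CD8SP cells (1.17, log2) and lower in CD4SP cells (-1.01), an opposite sign in the lineages; with 1 array per group the difference was not tested. Rgs2 was higher in CD4SP than in DP cells in both genotypes (1.37 in the control and 0.33 in the CKO) and lower in CD8SP than in DP cells in both (-0.32 and -0.70); the opposite signs drew attention, the comparisons share the DP arrays, and the difference was not tested.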

How the results depend on the processing

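The genotype comparison called 0 of 8 members under all 11 alternatives, and the 4 receptors higher in every pair kept their sign under each. Rgs1 changed sign for genotype (-0.13) with the slide as a block and without the CD8SP pair, which that block leaves out of the genotype effect; with pairs left out it ranged from -0.13 to 0.60. For lineage, 2 members were called under normexp, 0 with the slide as a block, and 0 (without the DP pair, added after seeing the data) to 1 (without the OT-I pair) when a pair was left out. In the CKO arrays alone Rgs1 was lower in CD4SP cells (-0.94). The DP to CD8SP value of Ptgir turned positive under quantile normalisation (0.10), normexp (0.10) and in the CKO alone (0.53), at signals mostly not well above background. Pathway genes rising in CD4SP cells numbered 8 with the slide block and 21 without the OT-I pair. Those falling numbered 0 with scaling to probes detected on all arrays, with quantile normalisation and with the slide block, 3 under normexp, 2 with a variance trend and 6 without the OT-I pair. In CD8SP cells 6 (detected probes), 7 (quantile) and 0 (slide block) rose, and 0 (detected probes), 7 (normexp), 1 (no filter), 0 (slide block) and 4 (trend) fell. TCRβ-negative cells were more than 2-fold below CKO DP cells in 0 members under normexp, and below the control DP array in 1. Apart from the slide block, which removes a degree of freedom, and pairs left out, the causes were not tested. Scaling to detected probes moved the median of all transcripts by 0.22 (lineage) and -0.15 (DP to CD8SP), and members' directions in the lineage contrast were the same under every scaling. The dimmer probe of Vipr1 gave genotype differences of 0.73, -0.01, 0.76 and 2.01 in the DP, CD4SP, CD8SP and OT-I pairs. The genotype fit compares CKO with control within each population; no other pairing of the arrays was used. Signals not well above background limit Ptgir, Gpr18 and Adgrg5 in DP cells to bounds.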
